A study of Homo sapiens with 74 samples.

Results

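ZNF22 was profiled by Cut&Run in HEK293T cells, a human embryonic kidney line. The regions described are those called in both ZNF22 replicate lists against the V5 mock IP, and a call alone does not show binding by ZNF22. The ZNF22 samples were 2 wells of HEK293T cells transfected with a plasmid that drove the ZNF22 ORF with a C-terminal V5 tag from an EF1-alpha promoter, and they were collected 48 h after transfection. The control was V5 IP from un-transfected HEK293T cells, which carry the endogenous ZNF22 gene but neither the plasmid nor the tag. The same design was applied to 35 other zinc-finger proteins (ZFPs), so that 72 peak lists with 92122 peaks were available in all. The ZNF22 lists held 6125 peaks for replicate 1 and 1836 peaks for replicate 2. Peaks of both lists that overlapped by at least 1 bp were joined into 852 regions. A region on the ZNF22 exons had folds of 5229 and 4547 over mock IP, and a region on EEF1A1, the gene that encodes EF1-alpha, had folds of 5776 and 5034. Sequence from both places is carried by the ZNF22 plasmid. The EF1-alpha promoter is also on the plasmids of the other ZFPs, and 35 of them had peaks at the EEF1A1 region. The ZNF22 ORF is not on those plasmids, but 8 other ZFPs had peaks at the ZNF22 exon region, and the source of these was not tested. These 2 regions were set apart, and the remaining 850 regions are described below.

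ZNF22, also named KROX26, is a C2H2 zinc-finger protein that has been described in developing teeth and is expressed in many tissues. C2H2 zinc fingers are small zinc-binding folds that read DNA when several of them stand in a row. In Cut&Run, an antibody directs micrococcal nuclease to chromatin around the tagged protein, and the released fragments come from direct contacts and from DNA held through other proteins alike. Active promoters in human cells are mostly CpG islands, GC-rich stretches with open chromatin where transcription starts and where many nuclear proteins gather.

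Sequences of 6 regions are shown to give the kinds of DNA that the lists held. The first 4 are the regions of highest fold at protein-coding transcription start sites (TSSs) that offered 150 exon-free bases within 50 bases of the summit. The MRPS35 region was the region of highest fold that no other ZFP shared at such a TSS, and its stretch lies 96 bases from the summit. The last one is an intergenic region that all 35 other ZFPs shared. All are on the plus strand of hg38, 5′ to 3′. In the first 5, capitals mark matches to the 15 promoter motifs listed further on, and in the last one they mark the pentamer ATTCC of human satellite repeats or its reverse complement GGAAT.
GNE, chr9:36258171-36258320: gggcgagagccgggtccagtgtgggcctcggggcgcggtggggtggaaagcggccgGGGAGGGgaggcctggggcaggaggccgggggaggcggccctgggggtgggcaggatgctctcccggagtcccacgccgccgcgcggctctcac
B3GALNT2, chr1:235504671-235504820: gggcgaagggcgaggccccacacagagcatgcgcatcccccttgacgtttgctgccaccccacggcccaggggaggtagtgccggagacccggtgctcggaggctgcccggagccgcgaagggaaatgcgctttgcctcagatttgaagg
TEF, chr22:41381588-41381737: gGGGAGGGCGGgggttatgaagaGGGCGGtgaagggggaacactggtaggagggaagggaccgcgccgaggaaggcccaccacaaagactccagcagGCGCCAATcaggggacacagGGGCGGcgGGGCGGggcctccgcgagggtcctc
ARHGAP45, chr19:1082371-1082520: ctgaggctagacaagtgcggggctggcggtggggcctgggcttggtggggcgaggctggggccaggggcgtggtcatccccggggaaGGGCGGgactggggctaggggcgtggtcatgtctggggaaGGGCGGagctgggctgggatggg
MRPS35, chr12:27710449-27710598: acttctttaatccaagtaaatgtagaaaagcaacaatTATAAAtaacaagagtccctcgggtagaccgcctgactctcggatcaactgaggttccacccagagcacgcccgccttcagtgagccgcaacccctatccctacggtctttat
Intergenic, nearest gene CWH43, chr4:49109834-49109983: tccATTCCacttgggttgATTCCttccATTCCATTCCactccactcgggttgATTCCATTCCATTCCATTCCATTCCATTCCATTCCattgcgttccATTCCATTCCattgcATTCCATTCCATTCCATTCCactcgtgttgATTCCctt
The GNE stretch had 79.3% GC and 15 CpG dinucleotides, and the TEF stretch held 7 motif matches, 4 of them GC boxes. The B3GALNT2 stretch had 12 CpG dinucleotides and no match to any of the motifs. The satellite stretch held 18 pentamers and 3 CpG dinucleotides.

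Of the 850 regions, 696 (81.9%) lay within 1 kb of a GENCODE TSS and 584 covered one. The TSS of a protein-coding gene was within 1 kb of 635 regions, and another 60 lay at TSSs of other gene types only. The mitochondrial genome, a single region over its whole length, covers TSSs too and is counted apart. The remaining regions were intergenic (81), intronic (36), on unplaced or unlocalized contigs or the mitochondrial genome (29) or exonic (9). The protein-coding TSS regions named 795 genes and the mitochondrial region another 13, and the sum of 808 is 4.04% of the 20018 protein-coding genes examined. The 635 regions had a median GC content of 68.7% in the 201 bp around the summit, and 575 of them (90.6%) were CpG-rich, defined as over 50% GC with an observed-to-expected CpG ratio over 0.6. The annotated TSSs of the genes with a region had a median GC of 69.7%, against 66.7% for all protein-coding genes. Protein-coding TSSs on both strands were within 1 kb of 137 of the 635 regions (21.6%), and 154 regions were near more than 1 gene. Among canonical TSSs, 211 of 795 genes with a region (26.5%) had a protein-coding TSS of the opposite strand within 1 kb, and 2006 of all 20005 (10.0%) did. A region near both TSSs of such a pair counts for both genes, which favours the first share. The part of this in the difference was not tested.

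Summits sat on both sides of the TSS. Of the 635 regions, 599 had their summit within 2000 bp of a canonical protein-coding TSS. The median position was 28 bp upstream, with quartiles at 205 bp upstream and 150 bp downstream. Within 250 bp of the TSS lay 389 summits (64.9%), and 317 summits were upstream and 280 downstream.

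**Figure D1:**
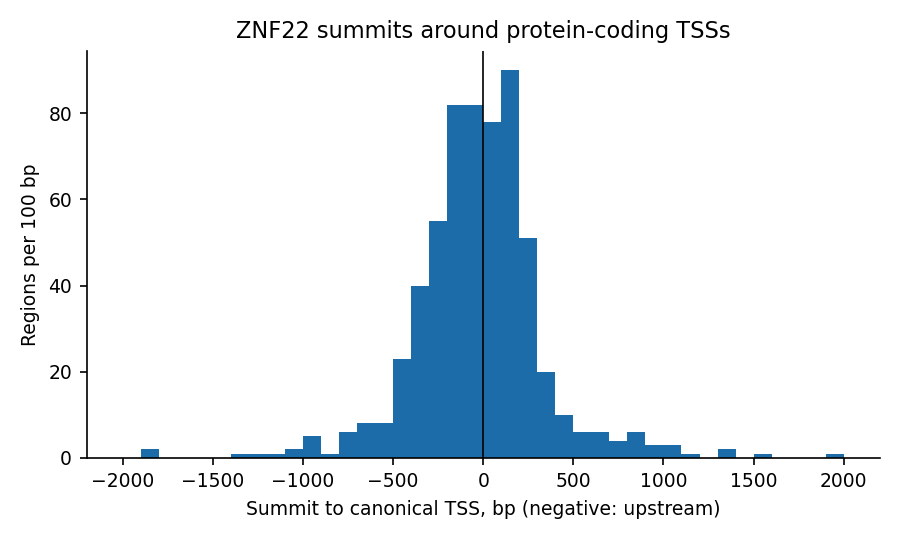
Histogram of the distance in bp from the summit of each ZNF22 region to the nearest canonical protein-coding TSS, in steps of 100 bp, for the 599 regions within 2000 bp. The bars pile up around 0 (black line), with 389 summits within 250 bp of it and a tail on each side.

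Fold over mock IP was modest at nearly all regions. The median fold was 5.96 in replicate 1 and 5.20 in replicate 2, and 574 of 850 regions had the higher fold in replicate 1. The lower fold of the replicates, used for ranking, had a median of 4.88 and a maximum of 14.6. It reached 10 in 3 regions and 7 in 53. Folds of the replicates followed each other weakly across regions, with a Spearman correlation of 0.394 over all 850 regions and 0.194 over the 635 at protein-coding TSSs, where all points share the 2 libraries and neither correlation is a test. The satellite-like regions differed in this, since only 13 of 49 had the higher fold in replicate 1 and their lower fold had a median of 2.23.

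**Figure D2:**
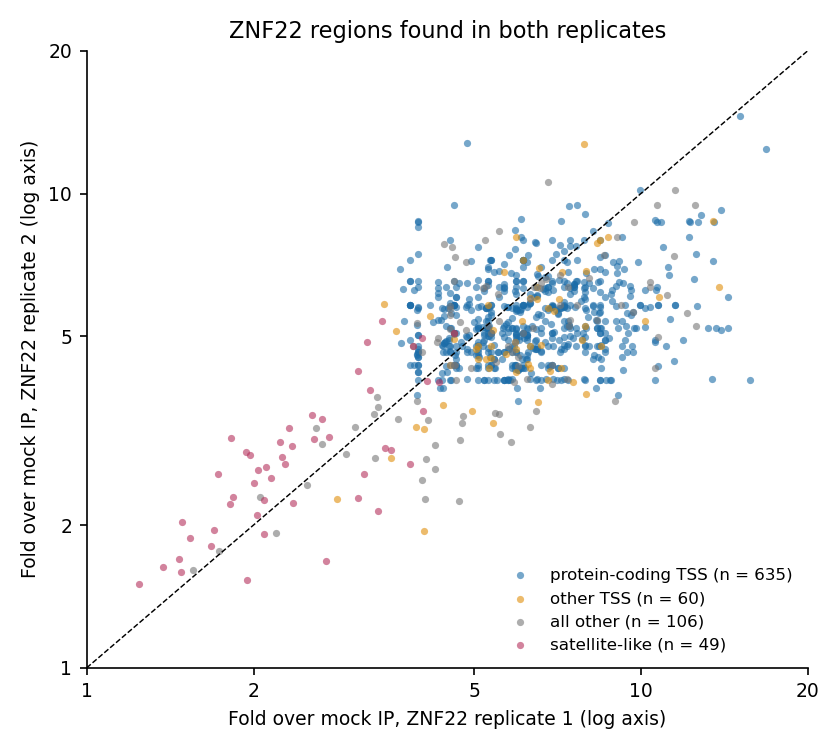
Fold over mock IP of each of the 850 ZNF22 regions in replicate 1 (x axis) and replicate 2 (y axis), both on log axes, coloured by location, with equality as a dashed line. Protein-coding TSS regions form a cloud with medians of 6.14 and 5.28, and the satellite-like regions lie below it, with a median lower fold of 2.23.

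The replicate lists differed in length, and the overlap looked different from each side. Of the replicate 1 peaks, 14.0% were found in replicate 2, whereas 50.2% of the replicate 2 peaks were found in replicate 1. Peaks in replicate 1 alone were still near TSSs in 78.5% of cases, while peaks in replicate 2 alone were in 57.9%. Peaks found in both had a median −log10 q of 5.17 in replicate 1 against 3.09 for those found there alone, and in replicate 2 these values were 3.79 and 2.67. Some single lists of other ZFPs, longer than the other ZNF22 list, overlapped a ZNF22 list about as much as the other replicate did or more. CISD1 replicate 1 held 38.5% of the ZNF22 replicate 1 peaks and 50.8% of the replicate 2 peaks. PHF7 replicate 1 held 36.1% and 47.7%. These lists had 8702 and 6284 peaks. Lists closer in length to ZNF22 replicate 2 (1836 peaks) held less of replicate 1 than its 14.0%. They were CPSF4 replicate 1 (1610 peaks, 13.5%), GIN1 replicate 2 (2060, 11.5%), TEX13A replicate 1 (1669, 11.0%) and CTCF replicate 2 (1740, 10.3%). Length alone did not order the overlaps, since TRIM55 replicate 2, with 3244 peaks, held 1.39% of the ZNF22 replicate 1 peaks, and GIN1 replicate 1, with 3063 peaks, held 20.9%. TRIM55 had only 1 region found in both of its own replicates.

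The strongest promoter region was at POLR1B on chromosome 2, which encodes the second-largest subunit of RNA polymerase I, the enzyme that transcribes ribosomal RNA. Its folds were 15.1 and 14.6 (chr2:112541899-112543067), and −log10 q was 39.13 and 35.04. NFE2L2, which encodes the oxidative stress regulator NRF2, followed with folds of 16.8 and 12.4. Both stood above every other promoter in the ranking, and 20 and 18 other ZFPs also had peaks there. The other ZFPs' highest folds at these places were 14.0 and 17.2, both for CISD1. Read totals and the mock IP sample of each list were not stated, so folds of different ZFPs need not share a scale. GNE, the gene for the first enzyme of sialic acid synthesis, had folds of 9.97 and 10.2 (chr9:36258042-36258549). It was shared by only 4 other ZFPs, namely CISD1, GIN1, PHF7 and TEX13A, and their highest fold was 6.82.

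Several of the 20 strongest promoter regions were at genes of nuclear regulators. THAP7, a zinc-binding THAP-domain repressor, had folds of 14.0 and 9.23, and TEF, a basic leucine zipper factor, had 10.6 and 8.81. KAT6B, a histone acetyltransferase, had folds of 8.73 and 8.65, almost the same in both replicates. SETD4, a lysine methyltransferase, reached 12.2 in replicate 1 and 8.11 in replicate 2, and 5 other ZFPs shared it. The ACIN1 and C14orf119 promoters, which lie on opposite strands, had folds of 12.7 and 8.71. ACIN1 encodes acinus, an RNA-processing protein that joins the exon junction complex.

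The ATM and NPAT promoters also lie on opposite strands, ATM being the kinase that signals DNA double-strand breaks and NPAT a coactivator of histone genes. Their shared region had folds of 8.44 and 7.99 and was called for 6 other ZFPs, none with a higher fold. Others were at genes of ubiquitin ligases and of small GTPases and their regulators. RBX1, the RING subunit of cullin ligases, had folds of 13.6 and 8.71, and TRIM37, a RING-type ubiquitin ligase, had 7.92 and 9.05. TIAM1, an activator of the GTPase Rac, had folds of 9.26 and 8.10, and ARHGAP45, a GTPase-activating protein, had 10.9 and 8.71. RAB4B, an endosomal GTPase, had 12.3 and 8.71, and RHEBL1, a Rheb-like GTPase, had 7.91 and 7.99.

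The remaining ones included mitochondrial genes. NDUFAF3, an assembly factor of respiratory complex I, shares a region with DALRD3, with folds of 10.7 and 8.71. OPA3, a mitochondrial protein mutated in optic atrophy, had folds of 12.2 and 8.75. B3GALNT2, a glycosyltransferase of dystroglycan, had 12.9 and 9.03. C14orf93 had folds of 8.21 and 8.34 and FAM86B1 had 11.0 and 7.72. Of these 20 regions, 19 had folds over 7.9 in both replicates, and 16 had the higher fold in replicate 1. In 13 of the 20, no list of another ZFP exceeded the higher ZNF22 fold. These 20 were picked by ZNF22 fold, which favours this count and that of folds over 7.9. Over all 635 protein-coding TSS regions, no other list exceeded ZNF22 in 232, and another list did in 403.

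Functional lists of genes were counted against the 4.04% of all protein-coding genes. Splicing factors and hnRNPs had 9 of 94 genes with a region (9.57%), led by SNRPD3, a core protein of spliceosomal snRNPs, with folds of 6.30 and 6.15. SRSF2, an SR protein that binds exonic enhancers, followed with 8.63 and 6.06. HNRNPA2B1 had 9.69 and 5.61, in a region it shares with the heterochromatin protein gene CBX3. Chromatin regulators had 8 of 97 (8.25%), with SETD4 first, then the remodeller CHD2 (11.2 and 6.73) and the deacetylase HDAC4 (6.45 and 7.89).

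DNA replication and cell cycle genes had 6 of 66 (9.09%). MAD2L1, a spindle checkpoint protein, had folds of 7.67 and 9.44. PCNA, the sliding clamp of DNA polymerases, had 7.28 and 6.53. ORC6, a subunit of the origin recognition complex, had 14.4 and 6.06. DNA damage response genes had only ATM among 53 (1.89%). Immediate early genes had 3 of 26 (11.5%), namely the transcription factors EGR1 (7.94 and 4.98), KLF10 (9.26 and 4.77) and EGR2 (4.39 and 4.62). Heat shock chaperones had 3 of 27 (11.1%), namely HSP90B1, the chaperone of the endoplasmic reticulum (6.90 and 6.53), the chaperonin subunit CCT3 (10.7 and 6.27) and HSPA1B, an inducible HSP70 (5.05 and 4.56).

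Genes of protein synthesis and energy metabolism gave shares between 3.49% and 8.82%. Aminoacyl-tRNA synthetases had 3 of 34 (8.82%), CARS2, YARS2 and SARS2, all of them mitochondrial enzymes. Translation initiation factors had 4 of 56 (7.14%), led by EIF4H (5.95 and 6.53), EIF5A (5.34 and 4.51) and EIF3A (6.90 and 4.36). Mitochondrial ribosomal proteins had 5 of 78 (6.41%), led by MRPS18B (11.2 and 7.02), MRPL40 (7.39 and 6.82) and MRPS35. Cytosolic ribosomal proteins had 3 of 86 (3.49%), RPS19, RPL10 and RPS21. Nuclear-encoded subunits of the respiratory chain had 4 of 85 (4.71%), led by ATP5MC1 (6.31 and 5.89), UQCRC1 (6.27 and 5.84) and COX6B2 (9.72 and 5.20). Proteasome genes had 2 of 48 (4.17%), the assembly chaperone PSMG2 and the core subunit PSMA4.

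RNA polymerase II, general factor and Mediator genes had 4 of 91 (4.40%), led by GTF2A1 (9.58 and 6.26), MED29 (5.66 and 5.25) and TAF12 (5.78 and 4.71). Other ZNF genes had 21 of 507 (4.14%), close to the share of all genes, led by ZNF524 (7.28 and 7.56), ZNF292 (7.67 and 7.26) and ZNF436 (6.14 and 7.26). Of the 35 other ZFPs profiled here, 4 had a ZNF22 region at their own gene (11.4%). These were MAZ (9.12 and 7.19), PHF7 (5.85 and 5.21), CISD1 (8.33 and 4.77) and CTCF (8.44 and 4.05). Small nuclear RNA genes had 2 of 53 (3.77%), RNU2-1 of the U2 snRNP and RNVU1-6, against 1.86% of all 61226 genes of any type. Replication-dependent histone genes (0 of 69), HOX genes (0 of 39), genes of tooth development and enamel (0 of 35) and olfactory receptors (0 of 400) had no region found in both replicates.

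**Figure D3:**
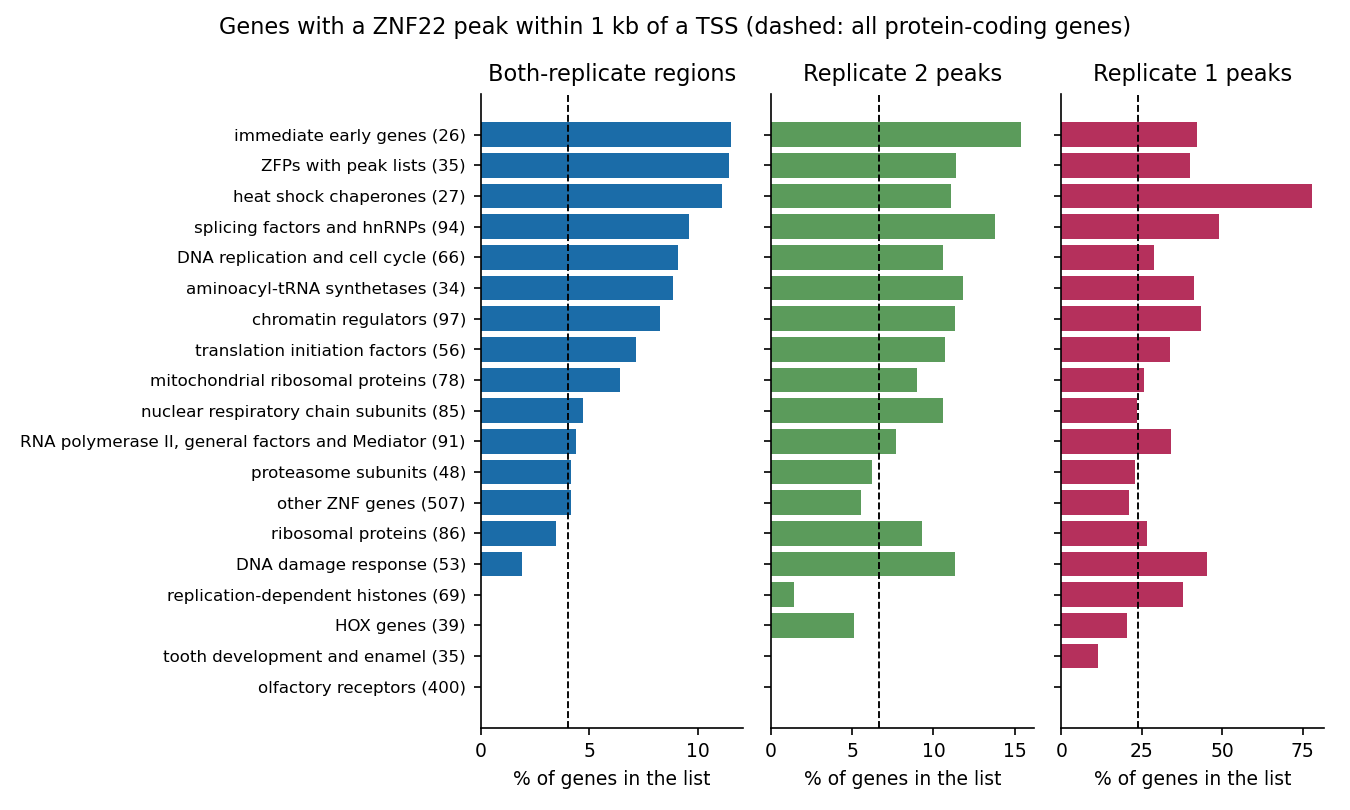
Percent of the genes of each list (number of genes in brackets) with a ZNF22 both-replicate region, a replicate 2 peak or a replicate 1 peak within 1 kb of a TSS, with the share of all protein-coding genes as a dashed line (4.04%, 6.66% and 24.0%) and a different x scale in each panel. Heat shock chaperones reach 77.8% in replicate 1 and 11.1% in replicate 2, and histone genes reach 37.7% and 1.45%.

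The single lists differed most on chaperones and histones. Replicate 1 had a peak near 4804 protein-coding genes (24.0%) and replicate 2 near 1334 (6.66%). Replicate 1 had peaks at 21 of 27 heat shock chaperone genes (77.8%), and replicate 2 at 3 (11.1%). These genes were looked at one by one after their counts were seen. TCP1, a chaperonin subunit, had a fold of 10.1 in replicate 1 and no peak in replicate 2. HSPD1 and HSPE1, which encode the mitochondrial chaperonins from a shared promoter, had 9.05 in replicate 1 alone, and HSP90AA1 had 7.67. The next highest counts were those of APEX2, CISD1 and GIN1 replicate 1, with 12 of the 27 genes each (44.4%), in lists that held 19.0%, 25.4% and 10.5% of all protein-coding genes. RNF113A replicate 1 had 8 (29.6%) in a list that held 4.07%, so that other lists also stood above their own background.

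Histone genes had peaks at 26 of 69 in replicate 1 (37.7%) and at 1 in replicate 2 (1.45%). The folds in replicate 1 ran from 3.95 to 7.29, the highest at H2AC19. Only H2BC26 had a peak in each list, and these peaks did not overlap. The lists next to it were APEX2 and PHF7 replicate 1, with 20 histone genes each (29.0%), where 19.0% and 22.9% of all protein-coding genes had a peak. DNA damage response genes had 24 of 53 in replicate 1 (45.3%) and 6 in replicate 2 (11.3%). H2AX had a peak in each ZNF22 list, with folds of 7.67 and 4.36, but these peaks did not overlap. CISD1 replicate 1 had more of the 53 genes, 25 (47.2%), and APEX2 and PHF7 replicate 1 had 22 (41.5%) and 20 (37.7%). Genes of tooth development had 4 of 35 in ZNF22 replicate 1 (11.4%) and 0 in ZNF22 replicate 2, while CISD1 replicate 1 had 10 (28.6%). The highest ZNF22 fold among them was at DLX2, a homeobox factor of the jaw and forebrain, with 9.45.

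Away from TSSs, 154 regions had no annotated TSS within 1 kb. Of these, 28 lay on contigs for which the annotation used held no TSS, so their distance to a TSS is not known. The 5 of highest fold lay on contigs and in introns. The strongest had folds of 11.5 and 10.2 on an unlocalized contig of chromosome 22, and 10 other ZFPs shared it. Another on an unlocalized contig of chromosome 17 had 10.7 and 9.47 and was shared by 26. In an intron of DHRSX, in the pseudoautosomal region of the X chromosome, a region had folds of 12.5 and 9.47 (chrX:2463768-2465345), 23626 bp from the nearest TSS, that of ZBED1. An intron of GALNT9 on chromosome 12 had 9.72 and 8.70, and an intron near a Y RNA gene on chromosome 21 had 9.04 and 8.11. All of these were shared by 10 or more other ZFPs.

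Ribosomal DNA recurred among the regions. Only regions on chromosome 21, on contigs and on the mitochondrial genome were searched for it. Exact 31-mers of RNA45SN2, the 45S pre-ribosomal RNA gene of RefSeq, or of its flanks made up at least 20% of 26 regions, 16 on chromosome 21 and 10 on contigs. Of the 26, 10 were within 1 kb of an annotated TSS. The other 16 included the 10 on contigs, which have no TSS in the annotation used. Of 12 regions on the 2 contigs that hold ribosomal DNA, 10 were among the 26. The lower folds of these 26 regions ran from 2.25 to 5.39, and a median of 27 other ZFPs shared them. Satellite-like windows, with at least 5 ATTCC or GGAAT pentamers, were found in 49 regions, none of them at a TSS. They lay mostly on chromosomes 4 (13), 1 (10) and 10 (6), and their lower folds stayed between 1.24 and 4.60.

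Of 15 short motifs searched on both strands of the 201-bp windows, the GC box was the most frequent. Searched were the GC box of SP and KLF factors (GGGCGG), the box bound by NF-Y (CCAAT) and the core site of ETS factors (CCGGAAG). Sites of further promoter factors were the NRF1 core with letters GCGCATGCG, the YY1 core with letters AAGATGGCG, the CRE of CREB and ATF factors with letters TGACGTCA and the MYC and USF E box with letters CACGTG. For cell cycle and housekeeping promoters there were the E2F core (TTGGCGC), the BANP core with letters CTCGCGAG and the site of ZNF143 and THAP11 with letters ACTACAATT. The rest were the TATA box (TATAAA), the MAZ core (GGGAGGG), a CTCF core with letters CCACNAGG, the inverted repeat of heat shock factors with letters TTCNNGAA, and the AP-1 site with any base in its centre. Matches of different motifs could share bases, as GGGAGGG and GGGCGG do in the TEF stretch. GGGCGG occurred in 60.5% of the summit windows of the 635 protein-coding TSS regions. It occurred in 70.8% of windows centred on the TSSs of genes with a region, and in 53.7% of those of all protein-coding genes. CCAAT occurred in 24.1% of summit windows and in 25.3% of all TSS windows, and GGGAGGG in 22.2% and 23.3%. In windows centred on the TSSs of genes with a region, these letters were in 31.6% and 26.0%, above the shares at all TSSs. The ETS, YY1 and BANP letters likewise were below the share of all TSSs at summits and above it at the TSSs of genes with a region (14.0% against 11.3%, 5.16% against 2.70% and 1.64% against 1.05%).

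Of the 15 motifs, 5 were more frequent at summits than at all TSSs, the GC box and those of NRF1, the E box, E2F and ZNF143. GCGCATGCG was in 3.46% of summit windows against 1.89% of all TSS windows, and TTGGCGC in 3.46% against 2.80%. CACGTG was in 7.40% against 5.66%, but in 5.41% of windows at the TSSs of genes with a region. ACTACAATT was in only 3 of 635 summit windows (0.472%) against 0.175%, and in 0 of 795 windows at the TSSs of genes with a region. TATAAA was rarer at summits (1.10%) than at all TSSs (6.67%). Among the 100 summits of highest lower fold, GGGCGG was in 61.0% and CACGTG in 10.0%. Windows of the regions over 1 kb from a TSS held GGGCGG in 25.3% of cases.

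Sharing with the lists of other ZFPs was almost complete. Of the 850 regions, 837 (98.5%) overlapped a peak of at least 1 other ZFP, and the median region was shared by 7 of the 35, with quartiles of 4.25 and 10. Lists of a batch were called against the same mock IP sample and the sources name no batch for a list, so overlap through a common control and overlap through binding cannot be told apart. The protein-coding TSS regions were shared by a median of 6 ZFPs and at most 21, a number reached at MICAL3, an actin-regulating oxidoreductase (4.21 and 5.36). Satellite-like regions were shared by a median of 33. The 98 regions called for at least 20 other ZFPs included 17 near a TSS. All 35 other ZFPs had peaks in 8 regions, every one satellite-like and intergenic, on chromosomes 17, 4, 1 and 5. The highest of these had folds of 2.66 and 3.35, and 26 other ZFPs had a higher fold there than ZNF22.

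**Figure D4:**
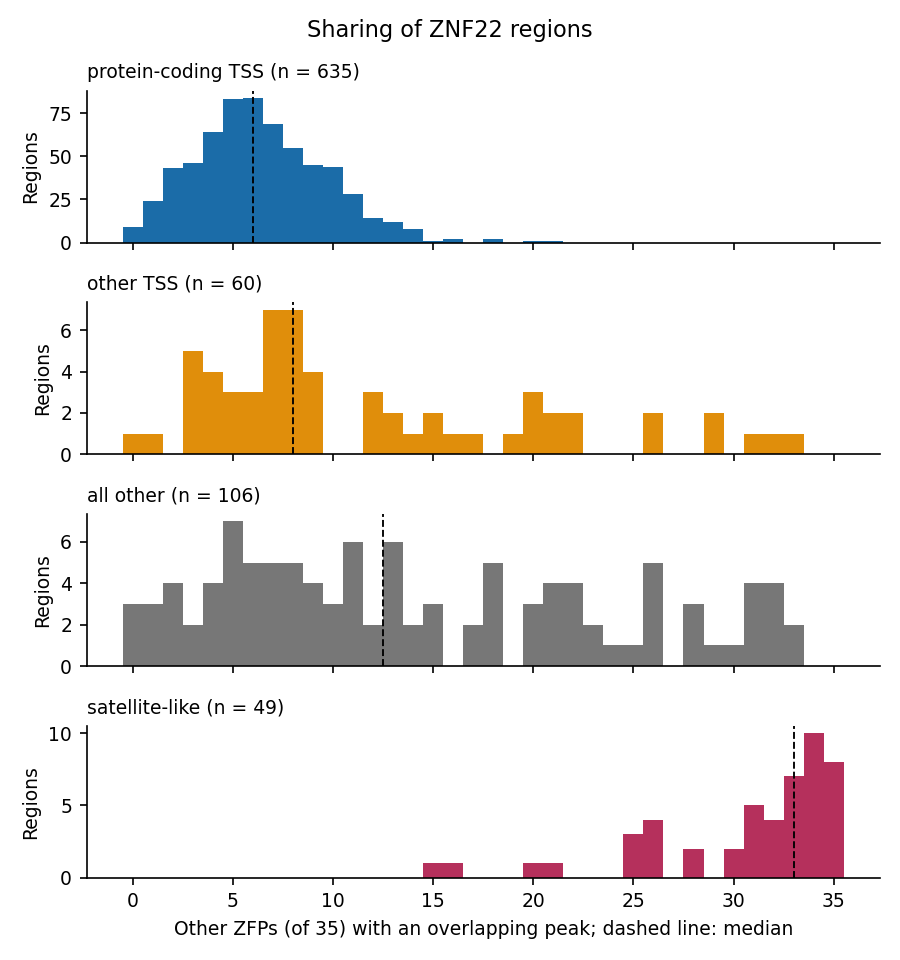
Number of regions by the number of other ZFPs (of 35) with an overlapping peak, in 4 panels for protein-coding TSSs, other TSSs, all other locations and satellite-like windows, with medians of 6, 8, 12.5 and 33 as dashed lines. Protein-coding TSS regions stay at or below 21 ZFPs and other TSS regions reach 33, while satellite-like regions start at 15 and end at 35.

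Among the 635 protein-coding TSS regions, sharing and width rose with fold. The 159 regions of highest lower fold (5.78 to 14.6) were shared by a median of 8 other ZFPs, and the 159 of lowest (3.65 to 4.47) by a median of 5. At least 10 ZFPs shared 50 of the former (31.4%) and 12 of the latter (7.55%). Median width was 723 bp in the former and 566 bp in the latter, and the part of width in the sharing was not tested. The Spearman correlation of fold and number of ZFPs was 0.365, that of fold and width was 0.241 and that of fold and GC was -0.0127, over the same 635 regions of the same libraries. Of these regions, 232 had their highest fold of all 72 lists in a ZNF22 list and 403 in that of another ZFP. The 232 include regions without a peak of another ZFP, and 223 of them were shared.

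APEX2, an AP endonuclease of base excision repair, overlapped the most ZNF22 regions, 706 of 850 (83.1%), and 1278 of its 9910 peaks (12.9%) lay on them. CISD1, a mitochondrial outer membrane protein with an iron-sulfur cluster, overlapped 677 (79.6%), with 9.17% of its peaks lying on ZNF22 regions. PHF7, a PHD-finger ubiquitin ligase, overlapped 644 (75.8%), with 13.5% of its peaks. G2E3 followed with 602 and GIN1 with 533. CTCF, the insulator protein, overlapped 389 regions (45.8%), and 742 of its 4938 peaks (15.0%) lay on them. MAZ, with 1450 peaks, overlapped 64 of the 635 protein-coding TSS regions, and RBM5, with 603 peaks, overlapped none of them. Of the MAZ and RBM5 peaks, 27.5% and 14.8% lay on ZNF22 regions of any kind. The part of list length in these counts was not tested. Where only regions found in both replicates of the other ZFP were counted, APEX2 held 426 (50.1%), CISD1 309 (36.4%) and PHF7 170. In turn, 31.5%, 27.2% and 60.5% of their both-replicate regions were ZNF22 regions.

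**Figure D5:**
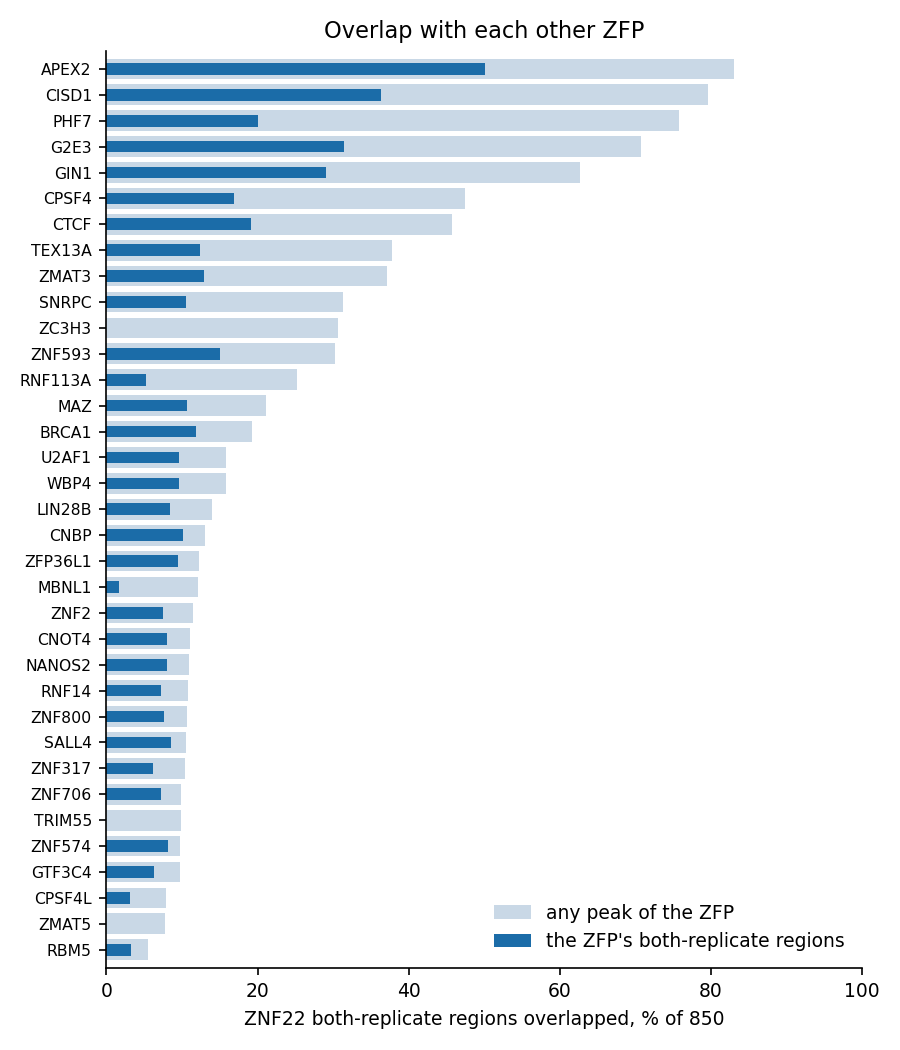
Percent of the 850 ZNF22 regions overlapped by each of the 35 other ZFPs, by any peak (light bars) and by regions found in both of its replicates (dark bars). APEX2 (83.1%), CISD1 (79.6%) and PHF7 (75.8%) lead by any peak, and the dark bar of APEX2 reaches 50.1%.

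Regions of ZNF22 alone were few and weak. No peak of another ZFP overlapped 13 regions, 9 of them at protein-coding TSSs. The strongest was MRPS35, a small-subunit protein of the mitochondrial ribosome, with folds of 5.20 and 5.08 (chr12:27710424-27711089). PIM3, a serine/threonine kinase, had 5.19 and 4.77, and STAG2, a cohesin subunit, had 5.52 and 4.63. An intergenic region on chromosome 14 had 5.75 and 4.77, and a region at a noncoding gene on chromosome 8 had 5.03 and 4.71. The lower folds of all 13 lay between 3.97 and 5.08, and −log10 q was at most 5.42. Where another ZFP had to hold the region in both of its replicates to count, 230 regions were unshared.

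ZNF22 was set against the 32 other ZFPs with at least 20 both-replicate regions by an exact two-sided permutation test of 1 ZFP against the rest, whose smallest possible p is 0.0303. The share of regions within 1 kb of a TSS was 81.9% for ZNF22 and 26.4% ± 24.9 (SD, n = 32) for the others, the third highest after APEX2 (86.0%) and G2E3 (83.3%). The exact p was 0.0909, or 0.182 after Benjamini-Hochberg adjustment over 4 tests. Median GC was 67.4% against 50.6% ± 10.5, again the third highest, with the same exact p of 0.0909 and adjusted p of 0.182. Satellite-like regions made up 5.76% of the ZNF22 regions and 42.4% ± 24.6 of the others' (exact p = 0.182, adjusted p = 0.242). These 3 values describe the same regions and are not independent. The other ZFPs with the most regions, APEX2, CISD1, G2E3, CTCF and GIN1 (644 to 1367), had TSS shares of 58.4% to 86.0%. ZNF574 (520 regions) had 12.5%, PHF7 (299) had 57.2% and ZNF317 (98) had 1.02%. The part of region number in the differences was not tested. The unshared share was 1.53% against 1.93% ± 3.23 (exact p = 0.909, adjusted p = 0.909), where CTCF had the highest value, 16.8%. A single test at its smallest p would give an adjusted p of 0.121 if no other test were extreme, so that this design could hardly pass the threshold of 0.05, and none of the 4 differences did.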

How the data were processed

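V5-tagged ZFPs were profiled by Cut&Run in HEK293T cells. The authors trimmed reads (Trimmomatic 0.36), aligned them to hg38 (Bowtie2 2.3.5.1), removed PCR duplicates (Picard 0.1.8) and called narrow peaks for each library with MACS2 2.2.7.1, taking the mock IP processed alongside as control. Each deposited peak carries a score, a fold and −log10 p and q values, all as the authors' caller gave them, and the score was not used. The fold is the caller's enrichment at the summit over a background that it estimated with the mock IP. Exact values recurred, as 5.81 in replicate 2 at CAMTA1, NFYC and GDI2 or 8.71 at ARHGAP45 and RBX1. Tied regions were ranked by position, so small differences in rank carry little meaning. The authors aimed at about 10M paired-end reads for each sample. Totals per library were not stated, and list length stands in for them. Folds compare transfected with un-transfected cells and were used only to rank and describe regions. They were not put on a common scale between ZFPs, so counts of higher folds between ZFPs are descriptive.

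Regions were unions of overlapping peaks of both replicates, with a fold taken per replicate as its highest peak. Distances ran from the region's edge to GENCODE 44 TSSs, and windows held 100 bp to each side of the summit of the higher peak. Regions on contigs without a TSS in this annotation were counted as over 1 kb from any TSS. Named were the 20 top regions by lower fold at protein-coding TSSs, the 5 top regions over 1 kb from any TSS, the 5 top unshared regions, the 5 most shared regions and the 3 top genes of each list. The members, gene lists, motifs and naming rule were chosen with earlier results of these data known. Replicates were wells of 1 cell line, so spread between them can be technical. Python 3.11.15, pandas 2.3.3, numpy 2.4.6 and scipy 1.17.1 were used, and bedtools 2.31.1 served to check overlaps on simulated data. Alternatives were stricter q values, a larger overlap, other distances, TSS sets, windows and sharing rules, and each replicate alone.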

Additional observations from a re-analysis of the deposited data

How the results depend on the processing

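The region count and the gene count followed the q-value threshold. Peaks with a −log10 q of at least 3 left 428 regions and 376 protein-coding genes, and peaks with at least 5 left 157 regions and 100 genes. Taking all peaks of a single replicate in place of both gave 1334 genes (without replicate 1) to 4804 genes (without replicate 2). The unshared share, below the mean of the other ZFPs at 1.53%, turned above it at 5.096% with a −log10 q of at least 5, at 27.1% when only both-replicate regions counted as sharing, and at 32.1% to 32.6% with 1 replicate left out. The TSS share, the satellite-like share and median GC kept their direction under each alternative run, but not their size. Without satellite-like regions, median GC was 67.7% for ZNF22 against a mean of 57.7% for the other ZFPs. That difference of 9.97 percentage points compares with 16.9 in the main run. The TSS share reached an adjusted exact p of 0.111 without replicate 2, and since 1 ZFP is set against the rest, p values near the smallest possible say nothing of stability. The TSS share ran from 58.0% at the strictest q value to 86.9% without satellite-like regions, and the cause of these shifts was not tested. No paired analysis was possible because each value compared joins both replicates of a ZFP, and replicate numbers only name wells. Read totals per library were not stated, and replicate 2 had fewer peaks than replicate 1, so a region missing from its list is one not detected there. Overexpression of a tagged protein in 1 cell line limits what the regions say of endogenous ZNF22.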
